A study of Ovis aries with 115 samples.

Results

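The cervix of Fur ewes was compared between the follicular and the luteal phase of a synchronised oestrous cycle. The libraries were taken by their labels (breed FUR, cycle Induced): 8 were labelled follicular and 9 luteal, 17 of the 115 libraries of the series. Genes with at least 1 CPM (counts scaled to library size) in 8 or more of these libraries were tested, which left 14573 of 27054 Ensembl gene identifiers. Each library was made from the polyadenylated RNA of the mid-cervix of 1 ewe, taken after slaughter, so that the unit of replication was the ewe.

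The whole series held 4 breeds, Belclare and Suffolk from Ireland and Fur and Norwegian White Sheep (NWS) from Norway, each at the synchronised follicular, synchronised luteal and natural follicular state. The study describes its synchronised follicular ewes, which were multiparous. Their cycles were synchronised with vaginal sponges that released the progestagen flugestone acetate, followed by equine chorionic gonadotropin at sponge removal. They were sampled after sponge removal with their ovaries inspected. The labels give the cycle of both Fur groups as induced, without the protocol. That the luteal ewes had the same treatment is therefore inferred. When the luteal ewes were sampled is not given in the sources used here, so a difference between the groups is one of phase together with the time since treatment.

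The cervix is a hormone-responsive gate between vagina and uterus. At the follicular phase oestrogen from growing follicles dominates, the canal relaxes and its epithelium secretes abundant fluid mucus. At the luteal phase progesterone from the corpus luteum dominates, and mucus becomes scant and thick. The tissue is a mixture of secretory and stratified epithelium, a collagen-rich stroma, smooth muscle, vessels and resident leukocytes.

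Total counts ranged from 16436861 to 22668698 in the follicular libraries and from 14432065 to 19279616 in the luteal ones. The limit of detection used, 3 counts, came to 0.168 CPM in an average Fur library. Markers of the tissue were found in every library: CDH1, the adhesion protein of epithelial cells, lay between 114 and 571 CPM, DES, the intermediate filament of muscle, between 423 and 7263 CPM, and VWF of endothelium between 435 and 720 CPM. The libraries of a group differed by more than sampling of counts would give in each pair, with a chi-square of at least 15.4 per degree of freedom. Gene names were known for 1352 identifiers, of which 1266 were tested. Since the names come from tables that mostly list genes differing between breeds, the named genes are not a random sample of all genes.

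Phase was the main division among the libraries. The first principal component held 41% of the variance of log2 CPM, and on it 7 follicular ewes lay between -74.84 and -34.29 and the 9 luteal ewes between 22.57 and 62.5. The division into phases accounted for 34.7% of the variance, against a median of 5.22% over the 24310 possible divisions of the ewes into groups of these sizes (exact permutation test, one-sided, p = 4.11e-05, the smallest this test can give). A pair of ewes stood apart. The library labelled follicular replicate 3 lay at 19.04 on the first component, beside the luteal ewes. The library labelled luteal replicate 8 lay at -80.94 on the second component, which held 19.4% of the variance, while the other 16 ewes lay between -43.81 and 64.49. Without both ewes phase accounted for 46.2% of the variance, a description only, since they were left out for where they lay on these components.

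**Figure D1:**
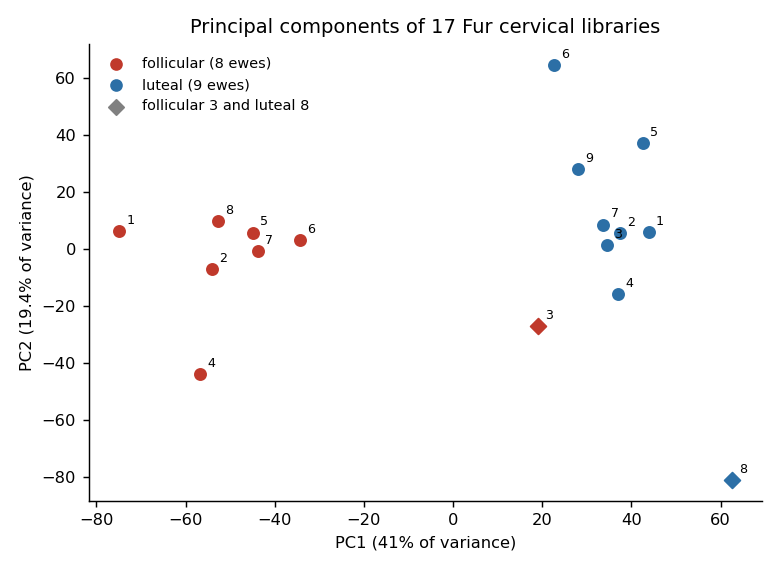
First and second principal components of log2 CPM in 17 Fur cervical libraries, each point 1 ewe marked with its replicate number, with follicular ewes in red and luteal ewes in blue. Follicular replicate 3 sits at 19.04 on the first component, on the luteal side, and luteal replicate 8 at -80.94 on the second.

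Tissue markers of these 2 libraries were then set beside those of the other ewes. The summed level of the 7 tested smooth muscle markers was 8497 CPM in follicular replicate 3 and 9752 CPM in luteal replicate 8. The other follicular ewes ranged from 1937 to 9523 CPM and the other luteal ewes from 630.7 to 5065 CPM. The 27 tested epithelial markers summed to 2023 CPM in follicular replicate 3, the second lowest of 8, and to 1330 CPM in luteal replicate 8, the lowest of 9. Follicular replicate 4, at -56.75 on the first component, had 9523 CPM for smooth muscle and 1690 CPM for epithelium. Whether these sums bear on where a ewe lay on the components was not tested. For several genes of large difference between the phases, given below, follicular replicate 3 lay near or within the luteal range. AQP9, a channel for water and glycerol singled out after its values were seen (log2 fold change -1.90 ± 0.97, adjusted p = 0.118), reached 116.3 CPM in that ewe, while the other follicular ewes lay between 0.3528 and 6.126 CPM and the luteal ewes between 25.81 and 127.9 CPM. The part of these marker levels in the differences between the phases was not tested. Counts are therefore also given without both ewes.

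In all, 3451 genes were differentially expressed (DEGs: adjusted p under 0.05 and a fold change above 1.5), 23.7% of those tested by edgeR's quasi-likelihood test with Benjamini-Hochberg adjustment. Of these, 1655 genes (11.4%) had higher and 1796 (12.3%) lower expression at the follicular phase. An adjusted p under 0.05 alone was reached by 6751 genes (46.3%). The levels of 1500 genes (10.3%) did not overlap between the groups: in 939 genes (6.44%) every follicular ewe was above every luteal ewe, and in 561 (3.85%) every follicular ewe was below. Without both ewes that stood apart there were 3942 DEGs, of which 3305 were among the 3451. Among the 1266 named genes, 370 (29.2%) were DEGs, 177 higher and 193 lower. The genes of smallest p had no name here. ENSOARG00000011378 was higher at the follicular phase by 1.39 ± 0.08 on the log2 scale (SE) and ENSOARG00000015835 by 2.46 ± 0.15, while ENSOARG00000001384 fell by 0.67 ± 0.06 and ENSOARG00000004941 fell by 1.09 ± 0.09. The adjusted p of these 4 genes lay between 1.38e-08 and 3.30e-07, and their groups did not overlap.

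The named gene with the largest difference was TAC3, which encodes the precursor of the tachykinin neurokinin B. The files hold 2 identifiers of that name, between which reads of near-identical copies may have been split, since only uniquely mapped read pairs were counted. For ENSOARG00000007920 the lowest, median and highest follicular levels were 2.58, 143 and 226 CPM and the luteal ones 0.112, 0.708 and 1.12 CPM. All follicular ewes were thus above all luteal ewes, with follicular replicate 3 at the lowest level and replicate 6 next at 24.2 CPM. The means were 122 ± 73.2 CPM (SD, n = 8) and 0.682 ± 0.313 CPM (SD, n = 9), a log2 fold change of 7.49 ± 0.68 (SE; adjusted p = 4.88e-07 in edgeR). ENSOARG00000010440 gave 7.33 ± 0.68 (adjusted p = 6.14e-07). Both identifiers had luteal medians under 1 CPM and passed the filter on low counts through the follicular libraries.

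GREB1 is an early oestrogen-responsive gene whose product binds the oestrogen receptor. Its lowest, median and highest levels were 75.4, 386 and 646 CPM at the follicular phase and 20.9, 37.3 and 88.6 CPM at the luteal phase. Only follicular replicate 3 fell within the luteal range. The log2 fold change was 3.02 ± 0.35 (adjusted p = 4.18e-06), and 3.07 ± 0.26 without both ewes that stood apart. PADI4, which converts arginine residues of proteins to citrulline, was also low in that ewe. Its follicular levels ran from 5.63 over a median of 65.7 to 126 CPM and its luteal levels from 2.24 over 5.45 to 10.6 CPM, a log2 fold change of 3.56 ± 0.42 (adjusted p = 5.84e-06). The next lowest follicular ewe was at 59.5 CPM, so that replicate 3 alone overlapped the luteal group.

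HIST1H1T, named for a linker histone best known from the testis, had follicular levels of 1.26, 5.02 and 15.0 CPM (lowest, median, highest) against 0.112, 0.433 and 0.681 CPM, without overlap. Its log2 fold change was 3.74 ± 0.46 (adjusted p = 8.47e-06), and it too passed the filter through the follicular libraries. HSD11B1, which regenerates active glucocorticoid inside cells, had 5.4, 18.8 and 31.6 CPM against 2.71, 4.38 and 7.59 CPM. Its groups overlapped through follicular replicate 3 only, and the log2 fold change was 2.15 ± 0.28 (adjusted p = 1.25e-05).

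Other named genes with higher expression and small p act in the secretory route and in retinol transport. RBP4, the carrier of retinol, had follicular levels of 90.0, 170 and 211 CPM and luteal levels of 35.2, 54.0 and 70.6 CPM. TMED3, which takes part in protein transport between endoplasmic reticulum and Golgi, had 157, 240 and 367 CPM against 66.7, 97.8 and 133 CPM. TXNDC5, a protein disulphide isomerase of the endoplasmic reticulum, had 195, 257 and 318 CPM against 93.4, 137 and 158 CPM. The groups did not overlap in any of the 3. Their log2 fold changes were 1.54 ± 0.16, 1.38 ± 0.15 and 1.0 ± 0.11, with adjusted p of 1.41e-06, 2.31e-06 and 4.08e-06. STRA6, the membrane receptor through which cells take up retinol from RBP4, was named after its values were seen. It had 31.2, 93.4 and 130 CPM against 0.337, 7.95 and 28.0 CPM, without overlap (log2 fold change 3.19 ± 0.48, adjusted p = 5.80e-05).

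Among the genes with lower follicular expression, FMO2, a flavin-containing monooxygenase, had the largest fold change of those with a name. Its follicular levels were 0.219, 0.548 and 1.67 CPM and its luteal levels 3.09, 6.83 and 19.0 CPM, without overlap (log2 fold change -3.82 ± 0.48, adjusted p = 9.29e-06). ADAM7, a membrane protein known from the epididymis, had 0.235, 0.479 and 38.1 CPM against 3.51, 36.6 and 262 CPM. The follicular value of 38.1 CPM belonged to replicate 3, and every other follicular ewe was at or below 1.43 CPM, under the lowest luteal ewe. FMO2 reached 1 CPM in 1 follicular ewe and ADAM7 in 2, so both passed the filter on low counts through the luteal libraries. The log2 fold change of ADAM7 was -3.67 ± 1.10 with all ewes (adjusted p = 0.0113) and -6.84 without follicular replicate 3 (adjusted p = 1.26e-05). MCOLN3, a cation channel of endosomes and lysosomes, had 1.41, 2.23 and 3.53 CPM against 1.68, 18.1 and 51.5 CPM (log2 fold change -3.00 ± 0.50, adjusted p = 0.000148). Here the overlap came from the luteal side, where replicate 8 had the lowest level and replicate 2 the next at 3.51 CPM.

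**Figure D2:**
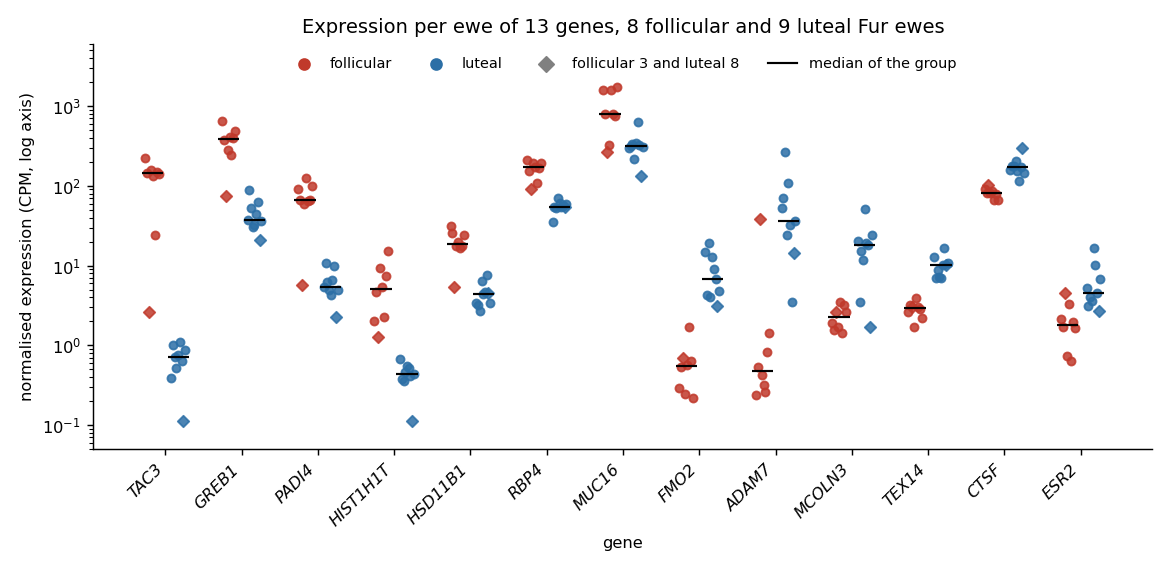
Normalised expression in CPM, on a log axis, of 13 genes in each of 8 follicular (red) and 9 luteal (blue) Fur ewes, with bars at the group medians and diamonds for follicular replicate 3 and luteal replicate 8. TAC3 is shown for ENSOARG00000007920, where the luteal ewes stay at or below 1.12 CPM, and follicular replicate 3 falls near or within the luteal range for GREB1, PADI4, HSD11B1 and ADAM7.

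The 6 named genes with lower expression and smallest p are given next, a choice that favours small spreads within the groups. TEX14, which stabilises bridges between germ cells, had follicular levels of 1.72, 2.94 and 3.97 CPM and luteal levels of 6.89, 10.2 and 16.5 CPM (log2 fold change -1.83 ± 0.20). TFAP4, a transcription factor of the basic helix-loop-helix type, fell by 1.26 ± 0.14 on the log2 scale, and GPM6A, a membrane glycoprotein of neurons, fell by 1.09 ± 0.12. D2HGDH, which oxidises D-2-hydroxyglutarate, fell by 0.91 ± 0.10, UNKL fell by 1.22 ± 0.14 and PLA2G6, a calcium-independent phospholipase, fell by 0.64 ± 0.08. All 6 had adjusted p between 2.57e-06 and 5.53e-06, and in each every follicular ewe was below every luteal ewe.

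Lists of genes were then examined by their role. They were chosen with earlier results of these data known, so the shares called are descriptions only. Shares stand beside that of all genes, but only named genes could be tested in the lists, and 29.2% of those were DEGs. The first list was of oestrogen and progesterone signalling, where 20 of 27 genes had an identifier here and 18 were tested. ESR1 and PGR, the alpha oestrogen receptor and the progesterone receptor, had none and were not examined. OXTR and HSD17B3, the receptor of oxytocin and an enzyme of androgen synthesis, did not pass the filter on low counts. There were 2 higher and 2 lower DEGs, 22.2% of those tested, beside 23.7% of all genes and 29.2% of the named genes. The median log2 fold change was 0.12 beside -0.0064 over all genes. GREB1 and HSD11B1 (above) were the higher ones. ESR2, the beta form of the oestrogen receptor, had 0.628, 1.82 and 4.54 CPM at the follicular and 2.69, 4.50 and 16.5 CPM at the luteal phase (log2 fold change -1.59 ± 0.43, adjusted p = 0.0058). PTCH1, the receptor of hedgehog ligands, fell by 0.83 ± 0.18 (adjusted p = 0.00147). A further pair of genes reached an adjusted p under 0.05 below the fold threshold: ARID5B, a chromatin regulator, with a log2 fold change of -0.51 ± 0.15, and FKBP5, a co-chaperone of steroid receptors, with -0.50 ± 0.19. Without both ewes that stood apart the list had 2 higher and 4 lower DEGs, while DEGs over all genes rose from 3451 to 3942. The genes added were FKBP5 (-0.65 ± 0.17, adjusted p = 0.00401) and IHH (-1.08 ± 0.43, adjusted p = 0.0452).

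The other 12 tested genes of that list did not pass edgeR's test with all ewes. IHH, a hedgehog ligand, had a log2 fold change of -1.0 ± 0.42 (adjusted p = 0.0561), but was called by DESeq2's Wald (adjusted p = 0.0321) and likelihood ratio tests (0.035) and in 4 of the 17 edgeR fits that each left out 1 ewe. HAND2, a stromal transcription factor, had 0.62 ± 0.27 (adjusted p = 0.0688). PADI2, another enzyme of citrullination, had 0.77 ± 0.41. The membrane progesterone receptors and their component PGRMC1 had values of -0.35 ± 0.23 for PAQR5, 0.34 ± 0.20 for PAQR6, 0.32 ± 0.21 for PAQR8 and 0.28 ± 0.13 for PGRMC1. For the receptor co-regulators NRIP1 and NCOA2 the values were 0.15 ± 0.20 and -0.19 ± 0.13, and for the transcription regulators KLF9 and CITED4 they were 0.23 ± 0.17 and 0.08 ± 0.24. HSD17B6, an enzyme of steroid metabolism, had 0.02 ± 0.30.

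Mucins and secreted defence proteins were the list in which higher expression was most frequent. This is a description only, since the list was chosen with earlier results of these data known. Names known here covered 15 of its 26 genes, with 17 identifiers, so the other genes could not be seen. Of 15 tested identifiers, 9 were higher DEGs and none was lower by the same test. That is 60%, beside 23.7% of all and 29.2% of named genes, and the median log2 fold change was 1.09. The groups overlapped in each of the 15, while they did not in 10.3% of all genes. MUC16, a large membrane mucin, had 266, 796 and 1711 CPM at the follicular and 131, 317 and 624 CPM at the luteal phase (log2 fold change 1.6 ± 0.36, adjusted p = 0.00167). MUC1, another membrane mucin, had means of 607 ± 229 and 341 ± 135 CPM (SD), a log2 fold change of 0.83 ± 0.27 (adjusted p = 0.0183). MUC5AC, a gel-forming mucin, was higher by 1.2 ± 0.46, while MUC5B, the other gel-forming one, had 0.80 ± 0.34 with adjusted p = 0.0619. Complement component C3 was higher at both of its identifiers, by 1.26 ± 0.27 (ENSOARG00000000114) and 1.37 ± 0.32 (ENSOARG00000000751), and these may share reads. Lipocalin LCN2, QSOX1, PLA2G10 and the 1 tested of 2 SAA1 identifiers were the other higher DEGs. WFDC2, a secreted protease inhibitor of high level, had 495 ± 159 and 547 ± 270 CPM and did not pass the test.

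The summed level of these genes ran from 2184 to 5573 CPM at the follicular phase and from 786.8 to 3481 CPM at the luteal phase, with luteal replicate 8 the lowest. Without both ewes that stood apart, 7 of the 15 were higher DEGs, with a median of 0.86, while DEGs over all genes rose from 3451 to 3942. Since tissue RNA was sequenced in bulk, more cells of a type and more RNA per cell cannot be told apart. The list of epithelial junctions and identity, measured in the same libraries, ran from 1690 to 4028 CPM against 1330 to 3822 CPM in sum.

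Only 4 of the 27 tested epithelial genes were DEGs (14.8%, beside 23.7% of all genes), 1 higher and 3 lower, with a median log2 fold change of 0.10. Without follicular replicate 3, where 3915 genes in all were DEGs, 2 were higher and 3 lower. CDH1 had means of 335 ± 127 and 300 ± 128 CPM (log2 fold change 0.16 ± 0.28). The DEGs were claudins, which seal or open tight junctions, and an adaptor protein. CLDN10, which forms ion-conducting pores, had 8.36, 22.3 and 149 CPM against 5.22, 9.46 and 14.2 CPM (log2 fold change 2.20 ± 0.53, adjusted p = 0.0028). With the replicate number as a block its value was 1.42 and it was not called (adjusted p = 0.0842). Its highest follicular ewes were at 149 and 88.2 CPM, and 3 of the 8 lay within the luteal range. CLDN3 and CLDN4 fell by 0.67 ± 0.20 and 0.69 ± 0.21, and GRB7, an adaptor of growth factor receptors, fell by 1.16 ± 0.23.

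Ion and water transport changed in both directions. Of 24 genes tested among 28 identifiers, 6 were higher and 7 lower DEGs, 54.2% of the list, beside 23.7% of all genes, with a median of -0.42. CFTR, the chloride and bicarbonate channel of secretory epithelia, had 14.9, 109 and 144 CPM at the follicular and 15.7, 30.3 and 62.9 CPM at the luteal phase, a log2 fold change of 1.43 ± 0.35 (adjusted p = 0.0029). The proton pump subunits ATP6V0A4 and ATP6V1B1 were higher by 1.10 ± 0.27 and 0.86 ± 0.29. LRRC8A, part of the volume-regulated anion channel, was higher by 0.75 ± 0.13, as was TRPM6, a magnesium channel, by 0.81 ± 0.30. KCNK6, a potassium channel, was the 1 gene of the 24 without overlap (7.0 to 14.9 against 1.51 to 6.48 CPM, log2 fold change 1.09 ± 0.22). Over all genes, 10.3% had no overlap.

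The lower transport genes included routes of sodium and phosphate. SLC34A2, a sodium-coupled phosphate carrier, had means of 271 ± 88.4 and 530 ± 176 CPM (log2 fold change -0.97 ± 0.25, adjusted p = 0.00425). SCNN1A, a subunit of the epithelial sodium channel, fell by 0.73 ± 0.27, SLC26A11, an anion transporter, fell by 1.10 ± 0.19 and SLC4A11 fell by 1.45 ± 0.29. Without both ewes that stood apart the list held 6 higher and 10 lower DEGs, while DEGs over all genes rose from 3451 to 3942.

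Of the 7 tested genes of squamous differentiation, 3 were higher and 1 lower DEGs (57.1%, beside 23.7% of all genes). GJB2, a gap junction protein, had 5.97, 19.7 and 103 CPM against 1.80, 6.37 and 12.1 CPM (log2 fold change 2.34 ± 0.47). A2ML1, a protease inhibitor of stratified epithelium, was higher by 1.41 ± 0.32, and KRT1, a keratin of upper epidermal layers, by 1.59 ± 0.51 at levels of a few CPM. KRT16, a keratin of stressed epithelium, went the other way with 19.7 ± 8.42 against 45.6 ± 17.8 CPM (log2 fold change -1.21 ± 0.30).

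**Figure D3:**
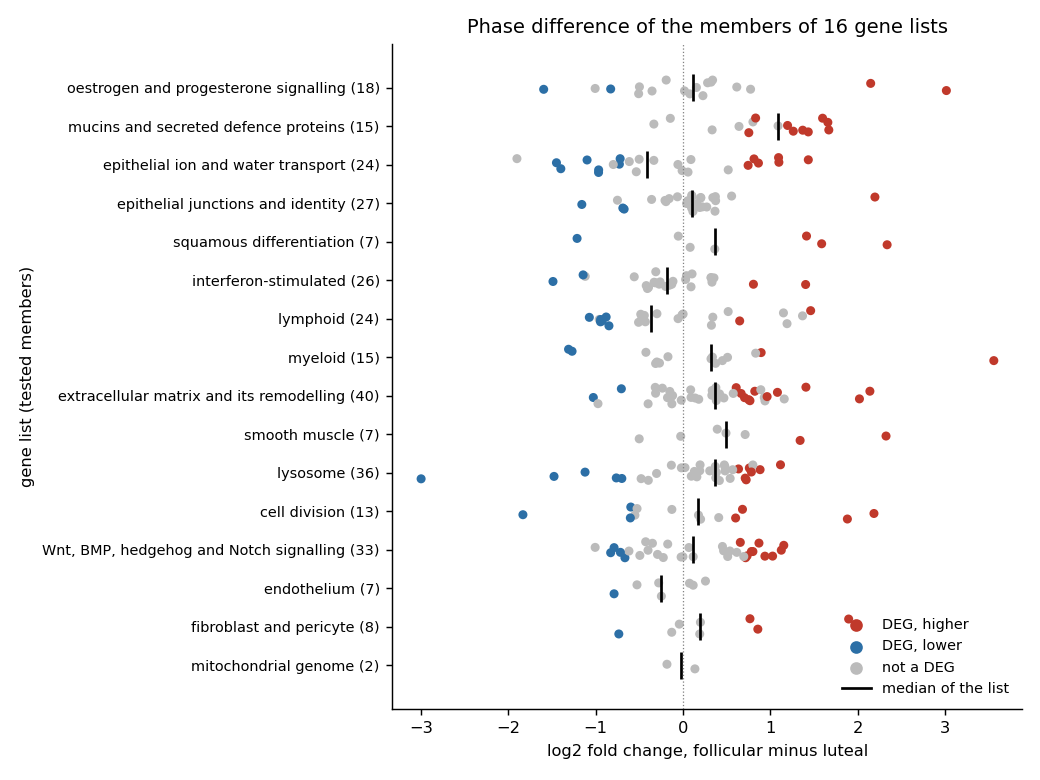
Log2 fold change, follicular minus luteal, of each tested member of 16 gene lists, with DEGs of higher expression in red, DEGs of lower expression in blue, other genes in grey and a bar at the median of each list. Mucins and secreted defence proteins have a median of 1.09 and no lower DEG, while ion and water transport, lysosome and cell division hold DEGs on both sides of 0.

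In the stroma, the extracellular matrix list had 40 tested genes, 11 higher and 2 lower DEGs, with a median of 0.37. These DEGs were 32.5%, beside 23.7% of all genes and 29.2% of named genes. SPON2, a secreted matrix protein, had 97.1, 208 and 279 CPM against 48.6, 77.5 and 99.6 CPM (log2 fold change 1.41 ± 0.20, adjusted p = 3.66e-05). AEBP1, a collagen-binding protein, had 518 ± 89.8 against 308 ± 82.4 CPM (0.75 ± 0.16), and BMP1, which trims procollagen, was higher by 0.61 ± 0.15. HYAL1, which degrades hyaluronan, was higher by 0.70 ± 0.14. FAP, a protease of activated fibroblasts that also stands in the fibroblast list, was higher by 0.77 ± 0.22. COL9A2 and WISP1 had the largest values of the list, 2.14 ± 0.59 and 2.02 ± 0.47, at luteal means of 4.42 and 0.903 CPM. THBS2 was higher at 1 of its 3 identifiers (ENSOARG00000005037, 1.08 ± 0.41), and the other two had 0.94 ± 0.43 and 0.93 ± 0.46 without passing.

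PLAT, the tissue plasminogen activator, fell by 1.03 ± 0.19, from a luteal mean of 202 ± 40.9 to a follicular mean of 99.4 ± 38.3 CPM, and LAMA2, a laminin chain of muscle basement membranes, fell by 0.70 ± 0.19. The gelatinase MMP2 and the membrane protease MMP14 had 0.42 ± 0.24 and 0.47 ± 0.18 and were not DEGs, MMP14 missing only the fold threshold (adjusted p = 0.0422). The 8 tested genes of fibroblasts and pericytes had 3 higher and 1 lower DEGs (50%, beside 23.7% of all genes). HIGD1B, a pericyte marker that passed the filter through the follicular libraries, was higher by 1.90 ± 0.43 at levels of a few CPM, and MXRA8 fell by 0.73 ± 0.23. PDGFRB, the receptor that marks pericytes and fibroblasts, had 122 ± 22.2 and 125 ± 36.0 CPM. The matrix list had 14 higher and 3 lower DEGs without both ewes that stood apart, where DEGs over all genes also rose, from 3451 to 3942.

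Smooth muscle markers had 2 higher DEGs among 7 tested and no lower one by the same test. Their share of 28.6% stands beside 23.7% of all genes and 29.2% of named genes. ACTG2, the smooth muscle gamma actin, had a lowest level of 1006, a median of 2039.9 and a highest of 4784 CPM at the follicular phase, and 191, 726 and 2280 CPM at the luteal phase. The groups overlapped, and the log2 fold change was 1.34 ± 0.42 (adjusted p = 0.0155, or 0.0783 with all 8 synchronised groups of the series in the fit). ACTC1, the cardiac alpha actin also found in smooth muscle, had 3.41, 6.90 and 14.6 CPM against 0.193, 0.708 and 7.07 CPM (2.32 ± 0.60, adjusted p = 0.00476). ACTC1 passed the filter on low counts through the follicular libraries. The luteal value of 7.07 CPM was that of replicate 8, without which the difference was 3.14. DES did not pass the test, with 3001 ± 1443 against 2286 ± 2055 CPM.

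Leukocytes and their signals were covered by lists of lymphoid, myeloid and interferon-stimulated genes. Of 24 tested lymphoid genes 2 were higher and 6 lower (33.3%, beside 23.7% of all genes and 29.2% of named genes), with a median of -0.36. TNFRSF25, a death receptor of lymphocytes, fell by 0.94 ± 0.23 and NCR3, an activating receptor of natural killer cells, fell by 0.92 ± 0.29. JAK3, a kinase of cytokine receptors, had 42.9 ± 26.1 against 15.6 ± 11.1 CPM (1.46 ± 0.45, adjusted p = 0.0127), and TNFRSF18, a costimulatory receptor of T cells, was higher by 0.65 ± 0.23 (adjusted p = 0.0308). TNFRSF18 was not called with all 3 Fur groups in the fit (adjusted p = 0.0873), with all 8 synchronised groups (0.151), or in 6 of the 17 fits that each left out 1 ewe. Without luteal replicate 8 the list had 1 higher and 7 lower DEGs, while DEGs over all genes went from 3451 to 3495. IGHG3, an immunoglobulin heavy chain with 2 identifiers that may share reads, reached 7108 CPM at ENSOARG00000009143 in 1 follicular ewe against a group median of 352 CPM, and its log2 fold change of 1.19 ± 0.76 did not pass. That ewe, follicular replicate 1, had a lymphoid sum of 9565 CPM, where the other follicular ewes had 377.6 to 3062 CPM and the luteal ewes 162.8 to 2125 CPM.

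Among 15 tested myeloid genes, 2 were higher and 2 lower (26.7%, beside 23.7% of all genes and 29.2% of named genes). PADI4 stands in this list as well as above, and IRF8, a transcription factor of myeloid and B cells, was higher by 0.90 ± 0.26. GPNMB, a glycoprotein of macrophages, fell by 1.31 ± 0.36 and HVCN1, a proton channel of phagocytes and B cells, fell by 1.27 ± 0.27. HVCN1 passed the filter on low counts through the luteal libraries. The leukocyte integrins ITGB2 and ITGAX had -0.17 ± 0.19 and -0.42 ± 0.51.

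Of 26 tested interferon-stimulated genes 2 were higher and 2 lower (15.4%, beside 23.7% of all genes), with a median of -0.18. OAS1 and OAS2, sensors of double-stranded RNA, fell by 1.49 ± 0.54 and 1.14 ± 0.38. Luteal replicate 6 had the highest levels of both, 105 and 345 CPM, and without it OAS1 had -0.78 (adjusted p = 0.103) and OAS2 had -0.75 (adjusted p = 0.0466). OAS1 was not called in 5 of the 17 fits that each left out 1 ewe, that one included. IFI30, a thiol reductase of antigen processing, had 63.9 ± 21.7 against 24.1 ± 7.06 CPM (1.40 ± 0.24), and TRANK1 was higher by 0.81 ± 0.18. MX1 and ISG15, antiviral proteins of the same response, had -0.32 ± 0.35 and -1.12 ± 0.49 and were not DEGs.

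**Figure D4:**
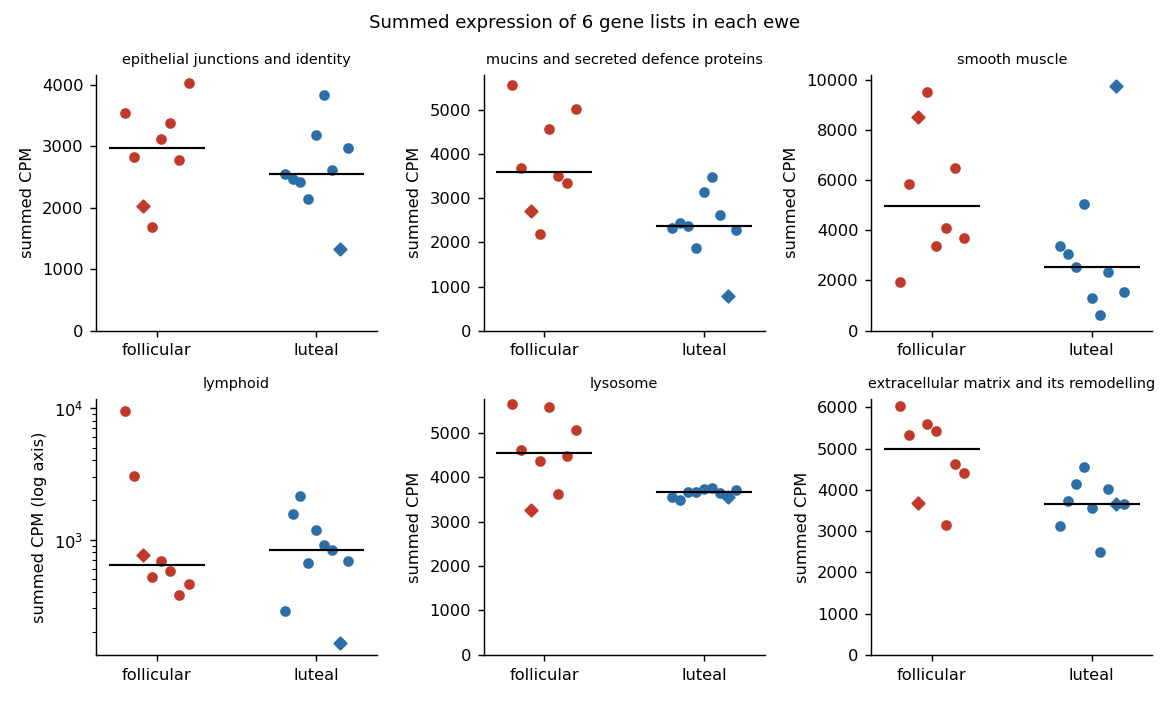
Summed CPM of 6 gene lists in each of 8 follicular (red) and 9 luteal (blue) Fur ewes, with bars at the medians, diamonds for follicular replicate 3 and luteal replicate 8, and a log axis for the lymphoid list only. Lysosomal genes sum to 3476 to 3759 CPM in the luteal ewes and to 3258 to 5641 CPM in the follicular ewes, and luteal replicate 8 has the highest sum of smooth muscle markers.

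Lysosomal genes had 8 higher and 5 lower DEGs among 36 tested of 38 identifiers (36.1%, beside 23.7% of all genes), with a median of 0.37. Their sum was narrow in the luteal ewes, 3476 to 3759 CPM, and wider in the follicular ewes, 3258 to 5641 CPM, with follicular replicate 3 the lowest. GRN, the precursor of lysosomal granulins, had 240 ± 70.4 against 130 ± 12.2 CPM (0.88 ± 0.15), PLD3 was higher by 1.12 ± 0.20 and cathepsin B (CTSB) by 0.71 ± 0.20. PSAP, the precursor of saposins, was the most abundant with 1204 ± 208 against 929 ± 32.0 CPM, a log2 fold change of 0.37 ± 0.09 below the fold threshold. Cathepsin F (CTSF) went the other way without overlap, with 65.4, 81.6 and 102 CPM against 114, 171 and 298 CPM (-1.12 ± 0.15, adjusted p = 1.92e-05). The channels MCOLN3 (above) and MCOLN2 (-1.48 ± 0.29) and the cholesterol transporter NPC1 (-0.76 ± 0.18) were also lower.

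Genes of cell division were split, with 4 higher and 3 lower DEGs among 13 tested (53.8%, beside 23.7% of all genes) and a median of 0.18. Without luteal replicate 8 there were 3 higher and 1 lower DEGs, while DEGs over all genes went from 3451 to 3495. IQGAP3, a scaffold protein of proliferating cells, had 2.53, 6.93 and 10.6 CPM against 0.505, 1.48 and 3.18 CPM (2.19 ± 0.36, adjusted p = 0.000126). SPC24, a kinetochore subunit, was higher by 1.88 ± 0.58 at a luteal median of 0.438 CPM, and H2AFX, a histone of the DNA damage response, by 0.68 ± 0.13. SPC24 passed the filter on low counts through the follicular libraries. The lower DEGs were TEX14 (above), CHTF18, a loader of the replication clamp, at -0.60 ± 0.17, and HMGB2, a chromatin protein, at -0.60 ± 0.19. CHTF18 lay close to the fold threshold, which it missed in 6 of the 17 fits that each left out 1 ewe.

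In Wnt, BMP, hedgehog and Notch signalling, 10 of 33 tested genes were higher and 4 lower DEGs (42.4%, beside 23.7% of all genes), with a median of 0.12. The higher ones included the Wnt ligands WNT10B (0.94 ± 0.14), WNT2 (1.13 ± 0.31), WNT4 (0.87 ± 0.24) and WNT5A (0.73 ± 0.26), the receptor FZD2 (0.72 ± 0.15) and the Wnt target AXIN2 (0.78 ± 0.15). WNT10B, of smallest p among these, had 20.4, 35.5 and 53.8 CPM against 15.2, 20 and 23.8 CPM. BAMBI, a decoy receptor of BMP and TGF-beta signals, had 14.9 ± 5.4 against 6.71 ± 1.68 CPM (1.15 ± 0.22). BMP2, KREMEN1 and NRARP were the other higher DEGs. EFNA1, an ephrin ligand, fell by 0.66 ± 0.10 without overlap of the groups, DLL4, a Notch ligand of vessels, fell by 0.79 ± 0.14, and TBX2 and PTCH1 were lower too. The receptors NOTCH2 and NOTCH4 had -0.22 ± 0.16 and 0.12 ± 0.16 and were not DEGs.

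Of the 7 tested endothelial genes only DLL4 was a DEG (14.3%, beside 23.7% of all genes), and VWF had 605 ± 72.1 against 575 ± 98.5 CPM. Without luteal replicate 8, where 3495 genes in all were DEGs, 2 endothelial genes were lower DEGs. Neither tested gene named as mitochondrial passed the test. The identifier named COX-1 had 36.5 ± 6.94 against 33.2 ± 4.32 CPM (log2 fold change 0.14 ± 0.11, adjusted p = 0.316) and MT-ND6 9.63 ± 1.91 against 10.9 ± 4.57 CPM (-0.18 ± 0.20, adjusted p = 0.475).

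The phase difference of Fur was set against that of NWS, the other Norwegian breed, in 10 follicular and 8 luteal ewes of the same synchronised cycle. NWS had 3210 DEGs between its phases, 22% of the genes tested. No gene had a phase difference that differed between Fur and NWS in edgeR's interaction test (0%), in which 473 genes had an unadjusted p under 0.05, and none did in DESeq2's Wald test, in which 577 had. The median SE of this difference was 0.216 on the log2 scale. It was larger for some genes discussed here, at 1.04 for TAC3 (ENSOARG00000007920), 1.38 for ADAM7 and 1.02 for FMO2. With these numbers of ewes small differences were not detectable, and for such genes large ones could be missed too. The phase difference of TAC3 was 7.49 ± 0.68 in Fur and 4.35 ± 0.87 in NWS at ENSOARG00000007920, 3.14 ± 1.04 apart (adjusted p = 0.9997). GREB1 had 3.02 ± 0.35 and 2.45 ± 0.53, RBP4 had 1.54 ± 0.16 and 1.40 ± 0.25, and HSD11B1 had 2.15 ± 0.28 and 2.16 ± 0.40. For ADAM7 the values were -3.67 ± 1.10 and -6.15 ± 0.85, and for FMO2 they were -3.82 ± 0.48 and -1.91 ± 0.81. IHH lay on either side of 0, with -1.0 ± 0.42 in Fur and 0.56 ± 0.82 in NWS, and passed the test in neither breed.

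**Figure D5:**
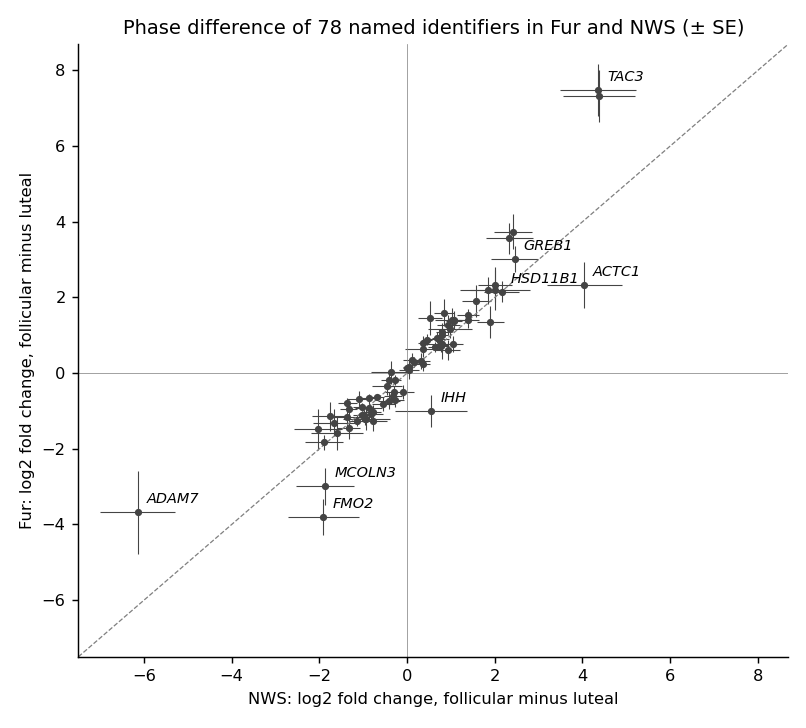
Log2 fold change, follicular minus luteal, of 78 named identifiers in Fur (y axis) against NWS (x axis), with bars of 1 SE in each direction and a dashed line where both breeds would be equal. TAC3 lies above the line (7.49 against 4.35) and FMO2 below it (-3.82 against -1.91), and no gene differed between the breeds after adjustment.

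Against the mean phase difference of Belclare, NWS and Suffolk together (59 ewes), no gene differed in Fur by edgeR's interaction test (0%), with 1273 genes at an unadjusted p under 0.05 and a lowest adjusted p of 0.0674. DESeq2's Wald test called 4 genes, none of which had a name: ENSOARG00000013619 (5.29 ± 1.05), ENSOARG00000000118 (1.77 ± 0.39), ENSOARG00000007128 (-2.68 ± 0.59) and ENSOARG00000015730 (-0.74 ± 0.17). These were named after their values were seen. Irish and Norwegian ewes differ in country as well as breed, which cannot be told apart here.

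Finally, 10 Fur ewes labelled as follicular in a natural cycle were set against the same 9 luteal ewes. There were 2650 DEGs (18.2%), 1416 higher (9.72%) and 1234 lower (8.47%). Because both comparisons share the luteal ewes, their values are given side by side only, and the difference between synchronised and natural ewes was not tested. TAC3 (ENSOARG00000007920) had 28.6, 122 and 244 CPM in natural ewes (lowest, median, highest), 7.51 ± 0.45 above luteal beside 7.49 ± 0.68 in synchronised ewes. GREB1 had 209, 277 and 628 CPM, 3.08 ± 0.28 beside 3.02 ± 0.35, and MUC16 1.41 ± 0.24 beside 1.6 ± 0.36. ADAM7 was at or below 1.80 CPM in all 10 natural ewes, -6.44 ± 0.69 beside -3.67 ± 1.10.

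Several genes that were lower in synchronised follicular ewes did not pass the test in natural ewes. TEX14 had -0.41 ± 0.35 beside -1.83 ± 0.20, GPM6A -0.20 ± 0.22 beside -1.09 ± 0.12, and GPNMB -0.02 ± 0.36 beside -1.31 ± 0.36. For OAS1 and OAS2 the natural values were 0.59 ± 0.47 and 0.25 ± 0.34 beside -1.49 ± 0.54 and -1.14 ± 0.38. ESR2 had -0.39 ± 0.48 beside -1.59 ± 0.43. HSD17B6 and KLF9 were DEGs of higher expression in natural ewes (1.22 ± 0.24 and 0.81 ± 0.16) at values of 0.02 ± 0.30 and 0.23 ± 0.17 in synchronised ewes.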

How the data were processed

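Per the methods of the study, the authors mapped reads with STAR 2.6.1b against Oar_v3.1 and counted uniquely mapped read pairs per gene with featureCounts (Subread 1.6.3; versions from the submitters' processing notes). They deposited raw counts for 27054 Ensembl identifiers in each ewe. Whether counting used the strand is not given in the sources used here, so reads of overlapping or antisense genes cannot be told apart. No genome was used here. Names came from supplementary tables of the study.

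Genes reaching 1 CPM in at least 8 of the 17 Fur libraries were kept. Both phases were fitted without other groups in edgeR 4.0.16 under R 4.3.3 (library sizes scaled by TMM, quasi-likelihood F tests), with Benjamini-Hochberg adjustment over the 14573 genes. The SE is the log2 fold change divided by the square root of F, and CPM values use the scaled library sizes. For principal components and the share of variance, 2 counts were added before the logarithm. Interactions of phase and breed were fitted over the groups concerned. Scripts were tested on simulated data.

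The members and the 16 gene lists were chosen with earlier results of these data known. Genes named by rule were the 6 named DEGs of smallest p and the 3 of largest fold change (mean of at least 5 CPM in the higher phase) in each direction, every tested hormone gene, up to 2 DEGs of smallest p per direction in each other list or else its most abundant gene, the mitochondrial genes, and per direction the 2 DEGs of smallest p that had no name. Values of some genes that the rule or the lists hold are not reported here. Other list members were chosen after their values were seen. Alternatives were DESeq2 1.42.0 size factors and tests, other filters, no fold threshold, glmTreat, other sets of groups, a term for replicate number, and leaving out 1 ewe at a time. Leaving out both ewes that stood apart was added after seeing the data. One library of the series, whose labels disagree, was left out.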

Additional observations from a re-analysis of the deposited data

Results flagged for a closer look

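In 162 groups of values (81 genes named by the rule, 2 phases), the highest or lowest ewe was examined on log2 CPM for a gap to its neighbour that exceeds Dixon's limit. Chance alone gives such a gap in about 1 in 20 groups, or 8.1 of 162, and 21 were found. Of these, 6 were follicular replicate 3 and 8 were luteal replicate 8, the libraries that stood apart in the principal components.

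Follicular replicate 3 was the lowest of its group for GREB1 at 75.4 CPM (the others 243 to 646), PADI4 at 5.63 CPM (59.5 to 126), HSD11B1 at 5.4 CPM (16.7 to 31.6) and PGRMC1 at 29.6 CPM (46.1 to 54.6). It was the highest for DLL4 at 29.5 CPM (14.3 to 19.6) and ADAM7 at 38.1 CPM (0.235 to 1.43). For each of these genes its level lay within the luteal range. Luteal replicate 8 was the lowest of its group for HIST1H1T at 0.112 CPM (0.354 to 0.681), KCNK6 at 1.52 CPM (3.65 to 6.48), CLDN3 at 25.2 CPM (47.1 to 83.7), IRF8 at 1.91 CPM (6.74 to 9.62) and NCR3 at 0.898 CPM (2.84 to 5.12), and the highest for SLC26A11 at 75.6 CPM (27.4 to 43.0), ARID5B at 232 CPM (100 to 142) and KLF9 at 22.0 CPM (9.14 to 12.2).

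The other 7 gaps fell on 5 ewes. Follicular replicate 4 was lowest for GRB7 at 8.79 CPM and CLDN3 at 17.9 CPM, and follicular replicate 6 for HAND2 at 3.87 CPM. Luteal replicate 1 was lowest for RBP4 at 35.2 CPM. Luteal replicate 5 was highest for PTCH1 at 58.6 CPM and FKBP5 at 165 CPM, and luteal replicate 7 for HSD17B6 at 2.80 CPM.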

How the results depend on the processing

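The count of 3451 DEGs stayed within 1.5 times under 8 other settings with all 17 ewes (3014 to 4062), and leaving out 1 ewe gave 3162 to 3915, with 1547 to 1851 higher and 1603 to 2064 lower. All 3451 kept their sign in those 17 fits, and 2684 were called in each. It moved with the fold rule, which by construction calls more or fewer genes: without a threshold there were 6751 DEGs (3453 higher, 3298 lower), and tested against 1.5 with glmTreat 1031 (636 higher, 395 lower), of which 61.7% were higher beside 48% in the main result. Of the genes named above, some lost their call with glmTreat and others kept it. Among those lost were ESR2 (adjusted p = 0.0621), ADAM7 (0.0585), PLAT (0.0516), GRN (0.0804), JAK3 (0.113), ACTG2 (0.139), OAS1 (0.193) and OAS2 (0.2). No other scaling moved the median of all genes by over 0.1. Phase accounted for 33.1% to 40.8% of the variance when 1 ewe was left out.

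In the comparison of Fur with the other 3 breeds, DESeq2's Wald test called 4 genes where edgeR called 0, and the cause was not tested. Of the genes named by rule, HSD17B6, near 0, had -0.0585 with the replicate block and -0.206 to 0.213 when 1 ewe was left out. CITED4 had -0.0111 without both ewes that stood apart, and -0.00956 to 0.317 when 1 ewe was left out, where MT-ND6 had -0.233 to 0.0116. None of these 3 was called.

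Replicate numbers are shared by different ewes, since tissue was taken after slaughter. Same-numbered ewes deviated with correlations of -0.167 to 0.378, over 0.1 in 3 of 8 pairs. Among the 9 luteal ewes, 3 of 8 follicular ewes matched their own number best. Whether the number carries an effect shared by both groups was not tested. With the number as a block (8 pairs, luteal replicate 9 left out) there were 3205 DEGs. Phase then held 53.1% of the variance within pairs (exact sign permutation, p = 0.00781, the smallest possible). The median over the 256 sign changes was 9.36%. As the mean of each pair was removed first, this share is not comparable with 34.7% of the total variance. In edgeR, CLDN10, OAS1 and TNFRSF18 were not called with the block (adjusted p 0.0842, 0.104 and 0.0581), while HAND2 passed the test (0.0329). Counting error and ewe number limit low genes such as SPC24.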
